A study of Mus musculus with 2 samples.

Results

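The very large insulin barcodes were droplets of the islet suspension that held at least 50000 UMIs (unique molecular identifiers, 1 for each captured transcript) and in which insulin led the hormones. Members had mt- genes under 10% of their UMIs, and the sum of *Ins1* and *Ins2* had to exceed *Gcg*, *Sst* and the sum of *Ppy* and *Pyy*. Of the 16215 barcodes in the filtered matrices, 507 met this rule, which was 3.13% (95% exact interval 2.86 to 3.41). The members were chosen by their UMI total, mitochondrial share and hormones, so those values are given as a description. All 507 lie outside the cells that the study analysed, because its filter kept barcodes under 50000 UMIs. They were set beside the smaller insulin barcodes, the 3365 that met the same rule with 20000 to under 50000 UMIs (1671 in WT and 1694 in *Npc1*-/-).

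Islets came from 2-week-old female mice on a C57BL/6J background, WT or *Npc1*-/- littermates from heterozygous matings, in which *Npc1* is lost in every tissue and not only in β cells. The islets of 3 mice of a genotype were pooled, loosened with trypsin and run as 1 10x Genomics 3′ library, so there were 2 libraries and no replicate. The WT matrix had 114324626 UMIs over 8569 barcodes (median 6713), and that of *Npc1*-/- 127122035 UMIs over 7646 barcodes (median 11657.5). With 1 library per genotype no test between genotypes was possible, and each interval below covers counting error only. A difference between genotypes and a difference between the 2 preparations cannot be told apart.

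β cells make and store insulin, and a large part of their mRNA encodes it. α, δ and PP cells make glucagon, somatostatin and pancreatic polypeptide, and a droplet that captures a pair of cells carries the transcripts of both, which raises its UMI total. NPC1 is a lysosomal membrane protein that moves cholesterol out of the lysosome. In young mice the β-cell mass still grows by division, and a cell that has copied its DNA is generally larger and richer in RNA.

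Very large insulin barcodes made up 1.87% of the WT library (160 of 8569, interval 1.59 to 2.18) and 4.54% of the *Npc1*-/- library (347 of 7646, interval 4.08 to 5.03). The share in *Npc1*-/- was 2.43 times that in WT (interval 2.01 to 2.95). That ratio depended on the minimum and was 2.18 at 45000, 2.99 at 60000 and 5.60 (interval 3.30 to 10.1) at 80000 UMIs. Among insulin-leading barcodes of at least 20000 UMIs, 8.74% of WT and 17.0% of *Npc1*-/- barcodes were very large, a ratio of 1.95 (interval 1.61 to 2.36). They carried 8.99% of all UMIs in WT and 19.0% in *Npc1*-/-. The libraries also differed in depth outside the β cells. In barcodes with endothelial markers, 461 in WT and 476 in *Npc1*-/-, WT reached a median of 8057 UMIs against 10832 in *Npc1*-/-, which was 1.34 times higher. When the *Npc1*-/- minimum was raised by that same ratio, an alternative chosen after the data were seen, 1.91% of its barcodes were very large (interval 1.61 to 2.24) and the ratio to WT was 1.02 (interval 0.812 to 1.29). After that scaling a difference in number was not detectable, and larger β cells and deeper capture cannot be told apart.

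Only UMI totals and insulin, both used by the rule, are given for the barcodes on either side of the threshold. In WT the members nearest to it held 50254, 50352 and 50393 UMIs, of which insulin was 40.7%, 45.04% and 44.5%. The WT barcodes just outside held 49657, 49651 and 49619 UMIs, with 46.1%, 30.9% and 48.6% insulin. In *Npc1*-/- those just inside held 50018, 50034 and 50203 UMIs with 41.8%, 50.3% and 36.5% insulin, and those just outside 49977, 49924 and 49918 UMIs with 24.2%, 48.1% and 52.5%. Another 7 barcodes in WT and 22 in *Npc1*-/- reached 50000 UMIs with a different leading hormone, of which *Ppy* and *Pyy* led 7 in WT and 18 in *Npc1*-/-. No very large insulin barcode had a 10x sequence that occurred in both libraries, although the libraries had 12 in common.

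The name insulin barcode did not hold for every member. Insulin held over 10% of the UMIs in 153 of the 160 WT members and in 344 of the 347 *Npc1*-/- members, where its median share was 51.8% and 50.8%. In the other 7 WT and 3 *Npc1*-/- members insulin was only 0.223% to 0.402% of the UMIs, and no member lay between 0.402% and 13.3%. These 10 led with insulin only because their other hormones were lower still. For comparison, insulin was a median of 1.87% of the UMIs in endothelial barcodes of WT and 0.898% in those of *Npc1*-/-, so the share in all 10 lay below the median of cells that do not make it. The smaller insulin barcodes held 41 such barcodes in WT (2.45%) and 97 in *Npc1*-/- (5.73%).

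**Figure D1:**
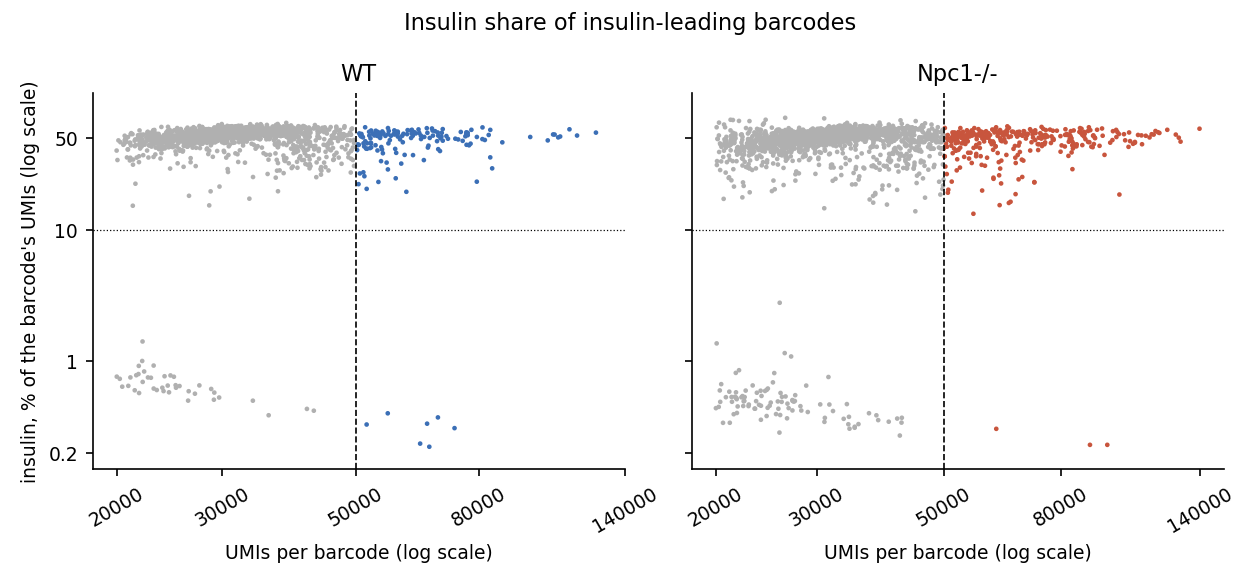
Insulin UMIs as a percent of the UMIs of each insulin-leading barcode (y axis, log scale) against its UMI total (x axis, log scale), in WT (left) and *Npc1*-/- (right). Coloured points are the very large barcodes to the right of the dashed line at 50000 UMIs, and 7 WT and 3 *Npc1*-/- points lie below the dotted line at 10%, with a gap between them and the rest.

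The 10 low-insulin members were described by their leading genes. A set of 5, 3 in WT and 2 in *Npc1*-/-, shared *Stmn2*, *Vip*, *Sncg*, *Npy*, *Rtn1*, *Fxyd7* and *Prph* among the 10 most raised genes of at least 4 of them. *Vip* and *Npy* encode neuropeptides, and *Stmn2*, *Sncg* and the tubulin gene *Tubb3* are known from neurons. *Vip* counts were 199, 160 and 225 UMIs in the WT barcodes and 263 and 447 in the *Npc1*-/- barcodes. *Stmn2* counts were 283, 265 and 315 in WT and 491 and 524 in *Npc1*-/-. All 5 barcodes were high in both genes and in *Sncg* (190 to 493 UMIs). The Schwann cell list summed to 37, 150 and 0 UMIs in these WT barcodes and to 29 and 0 in those of *Npc1*-/-. Other members carried markers of a further class. In WT, 1 barcode held 331 UMIs of the B cell list together with 96 of the T cell list, and another held 739 of the B cell list, of which *Igkc*, the immunoglobulin light chain, gave 523. Another WT barcode held 359 UMIs of the duct list with 123 of the stellate list, and 1 more held 563 of the endothelial list, as 1 in *Npc1*-/- did with 990. These few barcodes gave 99.8% of the *Vip* UMIs of all WT members and 100% of those in *Npc1*-/-, and 99.4% of the WT members' *Cd74*, an antigen presentation gene. Because of them, the values below are given for the members with at least 10% insulin, a limit chosen after the data were seen, and the values of the whole rule stand beside the counts.

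Glucagon or somatostatin was more frequent in the very large barcodes than in the smaller ones in both libraries where insulin was at least 10% of the UMIs, and over all members of the rule the sum of both was detectably more frequent in WT, and in *Npc1*-/- *Sst* alone was. A second hormone was counted where it reached 5% of the UMIs of the 4 hormone sums. In WT, 15.03% of very large barcodes carried *Gcg* or *Sst* at that level and 4.17% of smaller ones, a ratio of 3.603 (interval 2.14 to 5.86). In *Npc1*-/- the shares were 11.9% and 4.13%, a ratio of 2.88 (interval 1.90 to 4.32). *Gcg* alone was at 8.50% against 1.90% in WT and 6.40% against 1.503% in *Npc1*-/-. *Sst* alone was at 7.84% against 2.33% and 6.98% against 2.63%. Both genotypes thus gave the same order for each hormone. Over all members of the rule, *Gcg* or *Sst* was at 18.75% against 6.34% in WT (ratio 2.96, interval 1.90 to 4.47) and at 12.7% against 9.33% in *Npc1*-/- (ratio 1.36, interval 0.9504 to 1.91). For *Npc1*-/- the *Gcg* ratio there was 1.05 (interval 0.654 to 1.63), which held 1, while *Sst* alone was more frequent, at 6.92% against 2.60% (ratio 2.66, interval 1.55 to 4.48). *Ppy* and *Pyy*, the PP-family hormones, were at 15.03% against 9.33% in WT (ratio 1.61, interval 0.992 to 2.51) and at 20.6% against 20.8% in *Npc1*-/- (ratio 0.993, interval 0.757 to 1.29). These ratios depend on the comparators. At 20000 to 30000 UMIs the share was 11.8% in WT and 29.3% in *Npc1*-/-, and at 30000 to 40000 it was 5.42% and 12.2%. Over all members of the rule, *Ppy* and *Pyy* were more frequent in the very large WT barcodes, at 18.125% against 10.4% (ratio 1.74, interval 1.13 to 2.59). In *Npc1*-/- a difference was not detectable there, at 21.3% against 24.9% (ratio 0.856, interval 0.659 to 1.10). With any second hormone counted, the WT share was 21.6% (33 of 153) against 10.9%, and that in *Npc1*-/- 25% (86 of 344) against 21.7%. Over all members of the rule it was 25% (40 of 160) against 13.0% in WT, a ratio of 1.93 (interval 1.34 to 2.71), and 25.6% (89 of 347) against 26.1% in *Npc1*-/-, a ratio of 0.983 (interval 0.774 to 1.24). The WT difference was not detectable with a second hormone counted from 2% of the hormone UMIs (ratio 1.23, interval 0.905 to 1.63) or with a minimum of 60000 UMIs (ratio 1.68, interval 0.960 to 2.75).

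Barcodes with a second hormone also carried more UMIs of the marker list of that hormone, summed here without the hormone itself. In the 13 WT and 22 *Npc1*-/- members with *Gcg*, the rest of the α-cell list summed to 10549 and 6393 CPM (UMIs of a gene or list per 1e6 summed UMIs of the group), against 689 and 782 in members without a second hormone. Most of it was *Ttr*, the transthyretin gene. *Irx1*, an α-cell transcription factor, was at 51.8 and 24.9 CPM against 0.641 and 0.222. In the 12 WT and 24 *Npc1*-/- members with *Sst*, *Hhex*, the δ-cell transcription factor, was at 85.9 and 119 CPM against 1.03 and 1.17, while *Lepr* of the same list was at 0 in both. In the 23 WT and 71 *Npc1*-/- members with *Ppy* and *Pyy*, *Tspan8*, a tetraspanin gene, was at 185 and 186 CPM against 23.6 and 32.0. *Ghrl*, the ghrelin gene that marks ε cells, was at 71.2 and 11.6 CPM against 0.641 and 2.11. *Cmtm8*, on the same list, was at 4.94 and 3.88 CPM against 4.75 and 3.56, and so did not follow the hormones. The median Scrublet score, which compares each barcode with doublets simulated from the same library, followed these groups. It was 0.383 in WT and 0.347 in *Npc1*-/- members with *Gcg*, against 0.0732 and 0.0812 in members without a second hormone. With *Sst* it was 0.299 and 0.174, and with *Ppy* and *Pyy* 0.243 and 0.143. The score is built from the same counts as the hormones and is not an independent measure of doublets.

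The rise in second hormones lay below the threshold that defined the members. In WT, *Gcg* or *Sst* was present in 2.09% of barcodes of 20000 to under 40000 UMIs, 19.8% of those of 40000 to under 50000 and 15.03% of those of at least 50000. The same steps gave 2.37%, 13.7% and 11.9% in *Npc1*-/-. The barcodes of 40000 to 50000 UMIs were thus as rich in these hormones as the very large ones, and the step at 40000 was noticed in these data. No second hormone and no marker list of another cell class was found in 76.5% of the very large WT barcodes and 71.8% of those in *Npc1*-/- with at least 10% insulin.

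**Figure D2:**
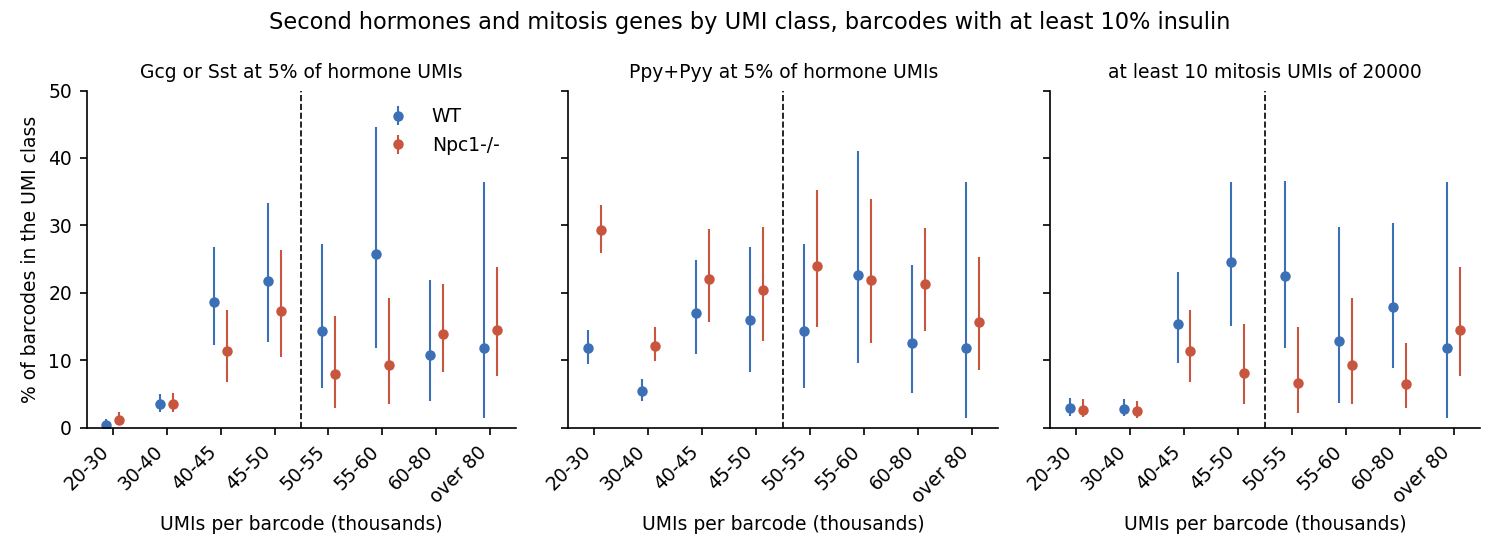
Percent of insulin-leading barcodes with at least 10% insulin that held *Gcg* or *Sst* (left), *Ppy* and *Pyy* (middle), or at least 10 UMIs of the mitosis genes after thinning to 20000 UMIs (right), by class of UMIs per barcode, with 95% exact intervals for WT (blue) and *Npc1*-/- (red). The dashed line marks 50000 UMIs. *Gcg* or *Sst* and the mitosis genes step up at 40000 UMIs. *Ppy* and *Pyy* in *Npc1*-/- fall from 29.3% at 20000 to 30000 UMIs to 12.2% at 30000 to 40000, and rise to 22.0% at 40000 to 45000.

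Markers of endothelial, stellate, fibroblast, Schwann, immune, acinar and duct cells were rare in the very large barcodes at 10 UMIs, and common at 5. After each barcode was thinned to 20000 UMIs, 10 or more UMIs of any of these 10 lists were found in 1.96% (3 of 153) of WT members with at least 10% insulin and 3.13% of smaller barcodes. In *Npc1*-/- the shares were 4.94% (17 of 344) and 4.07%, a ratio of 1.21 (interval 0.667 to 2.096). The intervals of that ratio hold 1, so a difference was not detectable. Over all members of the rule the shares were 5.63% against 5.45% in WT (ratio 1.03, interval 0.458 to 2.05) and 5.19% against 9.27% in *Npc1*-/-. The latter ratio was 0.560 (interval 0.323 to 0.914), so there the very large *Npc1*-/- barcodes held such markers less often, opposite to the ratio with at least 10% insulin. From 5 UMIs, 34.4% of WT and 29.7% of *Npc1*-/- members held such markers, with ratios to the smaller barcodes of 1.11 (interval 0.822 to 1.46) and 0.855 (interval 0.687 to 1.06). Endothelial markers were the most frequent, in 2 WT and 8 *Npc1*-/- members. Their summed level was 68.3 CPM in very large and 48.3 in smaller WT barcodes, and 96.5 and 58.5 CPM in *Npc1*-/-, with *Plvap*, a gene of fenestrated endothelium, the most abundant. A single barcode gave 79 of the 175 *Plvap* UMIs in WT and 146 of the 589 in *Npc1*-/-. The T cell list summed to 0.305 CPM in WT and 0.335 in *Npc1*-/-, with *Cd3d* and *Cd3e* at 0 in both. A single *Npc1*-/- barcode held 2374 of the 2542 UMIs of *Ctrb1*, an acinar protease, and 767 of the 812 of *Clps*, the colipase gene. Another held 95.4% of the UMIs of *Hbb-bs*, a haemoglobin chain.

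At equal depth the very large barcodes held few more genes than the smaller ones. Without thinning, their median was 5975 detected genes in WT and 6460 in *Npc1*-/-, against 4175.5 and 4380 in the smaller barcodes. Thinned to 20000 UMIs, the medians were 3342 against 3257 in WT, a ratio of 1.03 (interval 1.01 to 1.05), and 3484 against 3424 in *Npc1*-/-, a ratio of 1.02 (interval 0.999 to 1.04). Members with *Sst* stood above the rest, at 3979.5 genes in WT and 4131.5 in *Npc1*-/- against 3293.5 and 3423 in members without a second hormone. The median Scrublet score of all members with at least 10% insulin was 0.0794 against 0.0651 in WT and 0.0890 against 0.0603 in *Npc1*-/-. The caller's own threshold marked 6 WT barcodes (0.124% of those scored) and 82 in *Npc1*-/- (1.76%). With so few marked in WT, the calls of neither library were used.

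Barcodes rich in mitosis genes were more frequent among the very large barcodes in both genotypes. At least 10 UMIs of the mitosis genes were found in 17.6% of the very large WT barcodes (27 of 153) and 4.72% of the smaller ones, a ratio of 3.74 (interval 2.32 to 5.86). In *Npc1*-/- the shares were 9.01% (31 of 344) and 3.76%, a ratio of 2.40 (interval 1.503 to 3.76). Among very large barcodes the *Npc1*-/- share was 0.511 times that in WT (interval 0.295 to 0.889). From 80000 UMIs the shares were 11.8% in WT (2 of 17) and 14.5% in *Npc1*-/- (12 of 83). DNA replication genes reached the same level in 13.7% against 5.89% of WT and 9.01% against 4.57% of *Npc1*-/- barcodes. Like *Gcg* and *Sst*, the mitosis genes rose at 40000 UMIs, from 2.85% to 18.75% in WT and from 2.59% to 10.1% in *Npc1*-/-. The members with mitosis genes were mostly not those with a second hormone, which was found in 14.8% (4 of 27) of them in WT and 22.6% (7 of 31) in *Npc1*-/-, against 23.0% and 25.2% of the other members. Insulin was a median of 45.6% of their UMIs in WT and 47.6% in *Npc1*-/-, against 52.6% and 51.2% in the others. Their Scrublet score was 0.0828 in WT and 0.1204 in *Npc1*-/-, against 0.0794 and 0.0850.

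Gene levels of the 2 size classes were compared as the log2 ratio of CPM of the summed UMIs within each library, relative to the median gene. Few genes differed by 1.5 times in both libraries. With all members of the rule, 55 of the 9003 genes tested were higher (0.611%) and 161 lower (1.79%) in the very large barcodes. With at least 10% insulin in both classes, 21 of 8671 were higher (0.242%) and 11 lower (0.127%). Against comparators under 40000 UMIs with the same insulin limit, 79 of 8630 were higher and 11 lower. Among genes of at least 20 CPM that had the same direction in both libraries, the 10 with the largest mean ratios over the whole rule were *Vip*, *Sncg*, *Npy*, *Stmn2*, *Rtn1*, *Stmn3*, *Igkc*, *Cd9*, *Tubb3* and *Clu*, of which *Cd9* and *Clu* did not pass 1.5 times in *Npc1*-/- (0.44 and 0.31). The 10 lowest were *Mgp*, *Reg1*, *Cela3b*, *Esm1*, *Pnliprp1*, *Igfbp3*, *Rgs5*, *Ctrb1*, *Clps* and *Prss2*. None of these 20 is on the lists of β-cell transcription factors and glucose sensing genes. The low-insulin members held 100% of the *Sncg* UMIs of WT members and 99.6% of those in *Npc1*-/-, and 89.3% and 93.0% of *Npy*.

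With at least 10% insulin, the genes of at least 20 CPM with the highest mean ratios included *Top2a*, *Mki67*, *Lockd*, *Cenpf*, *Hist1h2ap*, *Ube2c*, *Cks2*, *Stmn1* and *Cdk1*, most of which are known from dividing cells. *Top2a*, the topoisomerase that untangles chromosomes, was at 64.0 CPM in very large and 24.9 in smaller WT barcodes, a log2 ratio of 1.29 (interval 1.15 to 1.43). In *Npc1*-/- it was at 29.0 and 22.0 CPM, a log2 ratio of 0.37 (interval 0.23 to 0.51). *Cenpf*, a kinetochore gene, was at 72.3 and 23.6 CPM in WT and 25.1 and 24.6 in *Npc1*-/-. Against all smaller barcodes, the size difference of these genes was large in WT and small in *Npc1*-/-, except for *Hist1h2ap* (0.85 and 0.69). That difference depended on the comparators. In *Npc1*-/-, *Top2a* was at 6.79 CPM at 20000 to 30000 UMIs and 23.5 at 30000 to 40000. It was at 49.989 CPM at 40000 to 45000 and 33.2 at 45000 to 50000. The WT steps were 7.74, 14.6, 72.7 and 125 CPM. In both libraries *Top2a* was thus higher at 40000 to 50000 UMIs than in the very large barcodes. *Hist1h2ap*, a histone gene whose copies are nearly identical so that reads may be shared among them, passed 1.5 times in both libraries, at 45.6 and 24.1 CPM in WT and 61.1 and 37.1 in *Npc1*-/-. Among the other genes called higher in both were *Clspn*, *Neil3*, *Pclaf*, *Ncapg2* and *Chaf1b*, which serve DNA replication, repair and chromosome condensation, *Gc*, an α-cell marker, *Hhex* and *Ly6h* of the δ-cell list, *Etv1* of the PP list and *Plvap* of the endothelial list. *Plvap* was lower over all members of the rule (-0.94 and -2.06). *Etv1* was not called without second-hormone or other-class barcodes (0.23 and 0.22), where *Gc*, *Hhex*, *Ly6h* and *Plvap* fell under the minimum level to be tested.

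**Figure D3:**
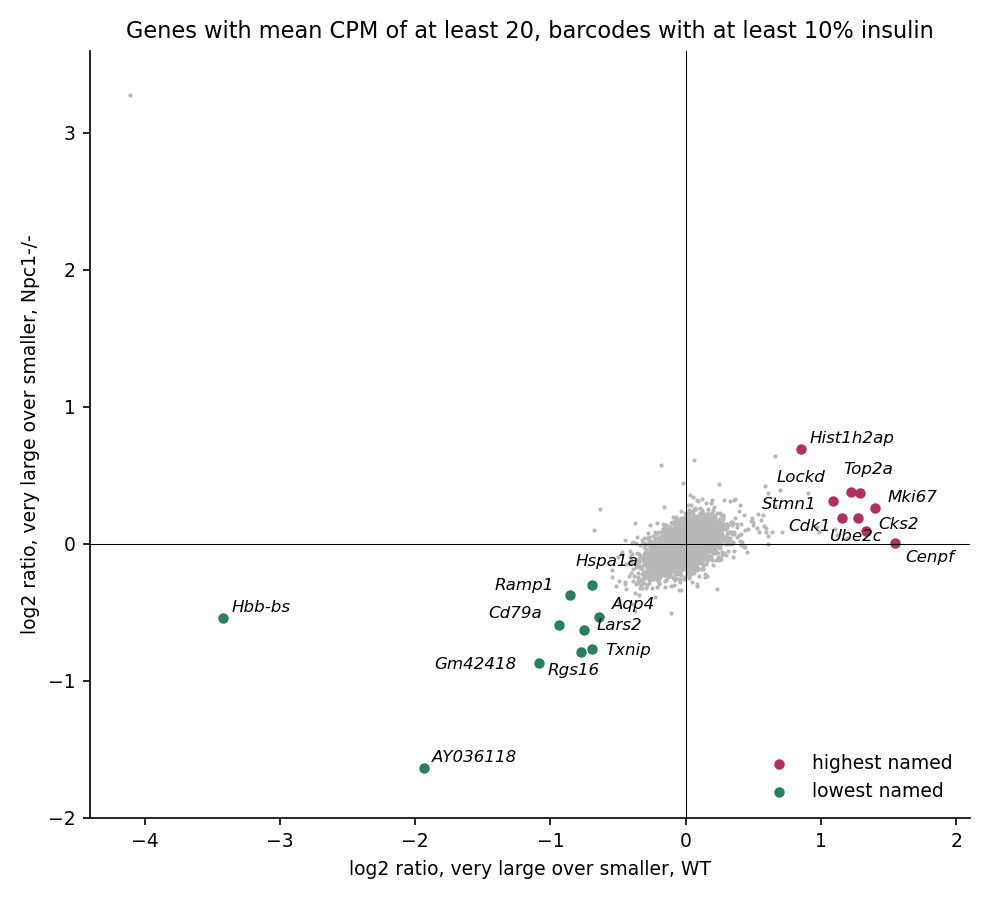
Log2 ratio of CPM, very large over smaller insulin barcodes with at least 10% insulin, in WT (x axis) and *Npc1*-/- (y axis), for each gene tested with a mean of at least 20 CPM (grey). Red marks the highest and green the lowest named genes, the mitosis genes lie far right and near 0 on the y axis, and *AY036118*, *Gm42418* and *Txnip* are low on both axes. The lone point at upper left is *Ctrb1*, from 1 *Npc1*-/- barcode.

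The genes called lower in both were few. *Gm42418* (ENSMUSG00000098178, chr17:39846958-39848788, mm10, GENCODE) and *AY036118* (ENSMUSG00000105361, chr17:39847113-39848035) are long noncoding RNA annotations that overlap on opposite strands and are known to collect ribosomal RNA reads. *Gm42418* was at 1901 CPM in very large and 3847 in smaller WT barcodes and at 2231 and 4000 in *Npc1*-/-, log2 ratios of -1.09 and -0.87. *AY036118* was at 19.2 and 70.2 CPM in WT and 27.6 and 84.3 in *Npc1*-/-. Both were about equally low in either genotype. *Lars2* was at 57.1 and 91.6 CPM in WT and 69.5 and 106 in *Npc1*-/-, log2 ratios of -0.75 and -0.63. Without second-hormone or other-class barcodes it was also called (-0.80 and -0.59). *Malat1*, a nuclear RNA, was at 4908 and 6148 CPM in WT and 5042 and 6713 in *Npc1*-/-, under the limit of 1.5 times in both.

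*Txnip*, the thioredoxin-interacting protein gene that responds to glucose, was also lower in both. It was at 41.5 CPM in very large and 63.8 in smaller WT barcodes, a log2 ratio of -0.69 (interval -0.84 to -0.54). The *Npc1*-/- levels were 116 and 194 CPM, a log2 ratio of -0.76 (interval -0.83 to -0.70). Its level had fallen by 30000 UMIs, from 91.8 CPM at 20000 to 30000 UMIs to 47.7 at 30000 to 40000 in WT and from 305 to 137 CPM in *Npc1*-/-. Over all members of the rule and with comparators from 30000 UMIs, the mean log2 ratio of both libraries was -0.34 for *Txnip*, -0.50 for *Rgs16* and -0.0031 for *Cd79a*, each short of a call. *Rgs16*, a regulator of G protein signalling, was at 13.8 and 22.6 CPM in WT and 21.2 and 36.1 in *Npc1*-/-. *Cd79a*, on the list of immature β-cell genes, was at 28.1 and 51.2 CPM in WT and 43.8 and 64.8 in *Npc1*-/-. The calls of *Cd79a* in both libraries were lost over all members of the rule (-0.43 and -0.50) and, in *Npc1*-/-, without second-hormone or other-class barcodes (-0.45). *Hbb-bs*, also among the lowest, was at 6.0 and 61.6 CPM in WT and 92.1 and 132 in *Npc1*-/-. A single smaller WT barcode held 2919 of the 3231 UMIs behind the WT level, and single barcodes held 2096 of 2197 in the very large and 2544 of 6787 in the smaller *Npc1*-/- barcodes. The erythroid list summed to 9.05 and 96.5 CPM in WT and 122 and 180 in *Npc1*-/-.

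In summed counts, the β-cell transcription factors and the glucose sensing and maturity genes did not pass 1.5 times by size. With so few genes called among all tested, 0 calls do not set these lists apart. Of the 14 β-cell transcription factors, 0 passed 1.5 times in WT, where 1.58% of all genes were higher and 0.554% lower, and 0 in *Npc1*-/-, where 0.542% were higher and 0.15% lower. Their list median was -0.05 in WT and 0.04 in *Npc1*-/-. *Mafa*, the factor of mature β cells, was at 215 and 199 CPM in WT and 223 and 187 in *Npc1*-/-. Of the 14 glucose sensing and maturity genes, 0 passed in either library. *Ucn3*, a peptide of mature β cells, was at 245 and 206 CPM in WT and 166 and 143 in *Npc1*-/-, a log2 ratio of 0.18 in both. Differences of this size are under the limit used for a call. They depended on the comparators. In *Npc1*-/-, *Ucn3* was at 105 CPM at 20000 to 30000 UMIs and 165 at 30000 to 40000, and *Mafa* at 153 and 213. The WT steps were 163 and 233 for *Ucn3* and 180 and 217 for *Mafa*. Medians per barcode, very large against smaller, were 205 and 136 CPM for *Mafa* and 144 and 101 for *Ucn3* in *Npc1*-/-. In WT they were 199 and 161 for *Mafa* and 234 and 171 for *Ucn3*.

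Of the secretory and housekeeping lists, some medians leaned the same way in both libraries. Of all 8671 genes tested, 2791 were below the median gene in both libraries and 2790 above it in both. Of the 26 endoplasmic reticulum folding and translocation genes, 18 were below the median gene in both libraries, with list medians of -0.15 in WT and -0.09 in *Npc1*-/-. Over all members of the rule, 14 were below it in both, as were 2737 of all 9003 genes. The list medians there were -0.19 and -0.0095. *Hspa5*, the main chaperone of that compartment, was at 643 CPM in very large and 768 in smaller WT barcodes and at 475 and 575 in *Npc1*-/-. Of the 81 ribosomal protein genes, 63 were above the median gene in both, with medians of 0.07 and 0.07. Over all members of the rule, 37 of the 81 were above it in both, as were 2738 of all 9003 genes. The medians there were 0.17 in WT and -0.0026 in *Npc1*-/-, so the shared lean was not kept. The 76 respiratory chain genes had medians of 0.02 and 0.03, the 13 prohormone processing and granin genes -0.05 and -0.06, and the 21 lysosome genes 0.00 and -0.01. The 20 cholesterol synthesis and uptake genes had medians of -0.01 and 0.02, and the 13 granule exocytosis genes 0.02 and -0.01. Past 1.5 times in 1 library were *Vgf*, a neuropeptide precursor of granules (0.69 in WT, 0.34 in *Npc1*-/-) and *Cox6a2* (0.10 and 0.62). The *Cox6a2* ratio in *Npc1*-/- was under the limit without second-hormone or other-class barcodes (0.54). *Chga*, a granin, was at 3931 and 4520 CPM in WT and 6530 and 7383 in *Npc1*-/-. The 18 mitophagy genes had medians of -0.05 and -0.01, and the 8 integrated stress response genes -0.15 and -0.12. Of the 5 immature and progenitor genes tested, *Cd79a* was the 1 call, with the limits given above, and 4 were below the median gene in both.

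Of the pathway lists, the cell cycle lists had the largest median by size in WT. All 16 mitosis genes tested were called higher in the very large WT barcodes, with a list median of 1.29, and 0 were called in *Npc1*-/-, with a list median of 0.18. Of all genes tested, 1.58% were called higher and 0.554% lower in WT, and 0.542% and 0.15% in *Npc1*-/-. Of the 16, 15 were above the median gene in both libraries, as were 2790 of all 8671 genes. Over all members of the rule, 9 of 17 were above it in both, with medians of 1.25 in WT and 0.0044 in *Npc1*-/-. The comparators included barcodes of 40000 to 50000 UMIs, where mitosis genes were as frequent as in the members (10.1% and 9.01% in *Npc1*-/-). Against comparators under 40000 UMIs, 105 of all genes tested were called higher in *Npc1*-/-, and 47 against all smaller barcodes. Of the 14 DNA replication genes, 5 were called higher in WT (median 0.51) and 1 in *Npc1*-/- (median 0.27), which was *Clspn*, a replication checkpoint gene called in both. In members with neither a second hormone nor another class, the mitosis medians were 1.33 in WT and 0.30 in *Npc1*-/-. The 19 immediate early and heat shock genes gave 2 higher and 3 lower calls in WT (median -0.17) and 1 higher and 0 lower in *Npc1*-/- (median 0.01). *Klf2*, a Krüppel-like factor that endothelial cells also express, was the gene called higher in both, with log2 ratios of 0.90 and 0.88, but it was at -0.56 and -2.28 over all members of the rule.

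**Figure D4:**
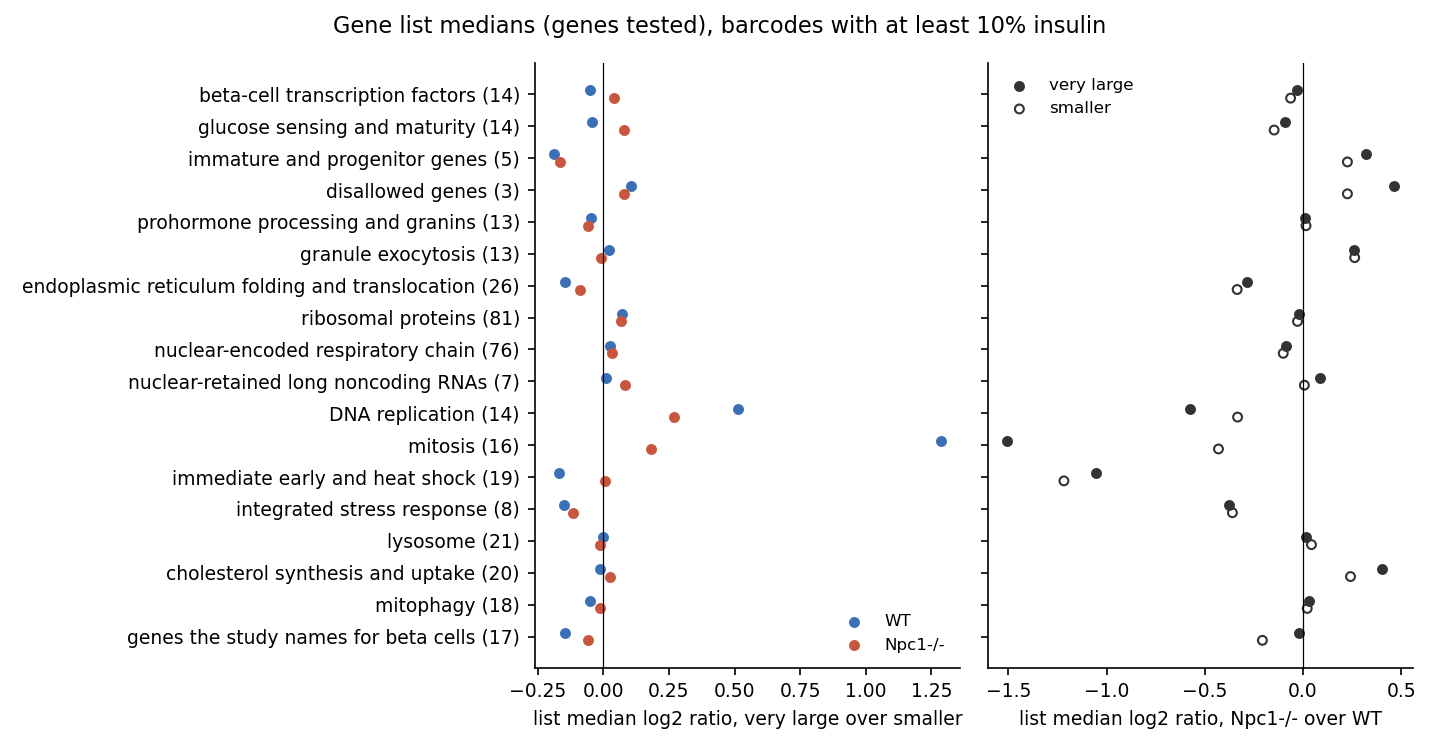
Median log2 ratio of each gene list, with the number of its genes tested in brackets, in barcodes with at least 10% insulin. Left, very large over smaller barcodes in WT (blue) and *Npc1*-/- (red), right, *Npc1*-/- over WT in very large (filled) and smaller (open) barcodes. Mitosis stands out at 1.29 in WT at left, and at right mitosis and the immediate early and heat shock genes lie lowest at -1.51 and -1.05 in the very large barcodes.

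*Npc1*-/- and WT were then compared within the very large barcodes. *Npc1* itself was at 7.12 CPM (70 UMIs) in WT and 2.35 (56 UMIs) in *Npc1*-/- very large barcodes, a log2 ratio of -1.67 (interval -2.20 to -1.14). In the smaller barcodes it was at 5.81 and 2.60 CPM, a log2 ratio of -1.28. The transcript was lower in *Npc1*-/- and still counted there, and the 3′ reads do not show which part of the gene was altered. With at least 10% insulin, 179 of the 8671 genes were 1.5 times higher in *Npc1*-/- (2.06%) and 236 lower (2.72%). In the smaller barcodes, 98 were higher (1.13%) and 107 lower (1.23%). Over all members of the rule, 218 were higher (2.42%) and 384 lower (4.27%) among the very large barcodes.

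Cholesterol genes and *Txnip* were among the highest in *Npc1*-/-. *Soat1*, which esterifies cholesterol for storage, was at 10.1 CPM in WT and 29.2 in *Npc1*-/- very large barcodes, a log2 ratio of 1.46 (interval 1.16 to 1.79) against 1.06 in the smaller ones. *Hmgcs1*, an enzyme of cholesterol synthesis, was at 27.1 and 47.9 CPM, a log2 ratio of 0.75 (interval 0.56 to 0.95). *Srebf2*, a factor that drives cholesterol synthesis genes, was at 27.1 and 45.6 CPM, a log2 ratio of 0.68 that was under the limit without second-hormone or other-class barcodes (0.55). Of the 20 cholesterol synthesis and uptake genes, 3 were called higher in the very large barcodes, where 2.06% of all genes tested were. The list median was 0.40 in very large and 0.24 in smaller barcodes. *Txnip* was at 41.5 and 116 CPM, a log2 ratio of 1.41 (interval 1.26 to 1.57), and its ratio in the smaller barcodes was 1.48. The ribonuclease gene *Rnase4* was at 56.2 and 115 CPM. *Hbb-bs* also stood among the highest, from the single barcode above.

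Among genes of at least 20 CPM with the same direction in both size classes, mitosis genes and immediate early and heat shock genes were the lowest in *Npc1*-/-. *Jun*, an immediate early transcription factor gene, was at 168 CPM in WT and 55.9 in *Npc1*-/- very large barcodes, a log2 ratio of -1.66 (interval -1.76 to -1.55) and the same -1.66 in the smaller ones. *Hspa1a*, a heat shock gene with a nearly identical copy, was at 87.7 and 24.2 CPM. *Fosb* was at 39.97 and 11.2 CPM. Of the 19 genes of this list tested, 17 were called lower, with a median of -1.05 in very large and -1.22 in smaller barcodes. Of all genes tested, 2.72% were called lower in the very large and 1.23% in the smaller barcodes. All 16 mitosis genes were called lower in the very large barcodes, with a median of -1.51, and -0.43 in smaller ones. They were counted over the same barcodes and are not 16 separate observations. Their difference depended on the UMI class. At 50000 to 55000 UMIs, 22.4% of WT and 6.67% of *Npc1*-/- barcodes held mitosis genes. From 80000 it was 11.8% (2 of 17) and 14.5% (12 of 83). *Top2a* was there at 29.6 and 30.5 CPM, and at 14.6 and 23.5 at 30000 to 40000. In the other UMI classes it was lower in *Npc1*-/-. *Ube2c*, which drives exit from mitosis, was at 94.3 and 31.2 CPM in the very large barcodes, a log2 ratio of -1.67 (interval -1.81 to -1.52), and at 37.1 and 26.9 in the smaller ones, a log2 ratio of -0.58 (interval -0.68 to -0.48).

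Genes of β-cell identity that the study named gave mostly small differences in the very large barcodes. *Ucn3* was lower in *Npc1*-/- with a log2 ratio of -0.63 and *Trpm5*, a cation channel of β cells, with -0.74, the only calls among the 14 glucose sensing genes. Of all genes tested, 2.72% were called lower. The *Ucn3* value was under the limit for a call over all members of the rule (-0.54) and without second-hormone or other-class barcodes (-0.54). *Mafa* had a log2 ratio of -0.02, *Nkx6-1* of -0.02 and *Pdx1* of -0.18, and the 14 transcription factors a median of -0.03. *Slc2a2*, the glucose transporter gene, was at 250.2 CPM in WT and 211 in *Npc1*-/-, a log2 ratio of -0.32 (interval -0.39 to -0.25) against -0.40 in the smaller barcodes, under the limit for a call. *Cox6a2*, a tissue form of a cytochrome oxidase subunit, was at 25.6 CPM in WT and 7.38 in *Npc1*-/-, a log2 ratio of -1.86 (interval -2.15 to -1.58), against -2.40 in the smaller barcodes. *Chga* was higher, with a log2 ratio of 0.66. *Bnip3* and *Pink1*, mitophagy genes, had log2 ratios of 0.20 and 0.47, under the limit for a call. *Ldha*, a disallowed gene kept low in β cells, was at 2.24 CPM in WT and 2.01 in *Npc1*-/-.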

How the data were processed

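The deposited files held raw UMI counts per gene and barcode, which the authors made with Cell Ranger 3.1.0 on mm10 and, per the submitters' processing notes, analysed with Seurat 4.0.3. The kit version differs between the labels and the study's methods and is not settled here. Counts were used as deposited, without the study's upper UMI limit. Members and gene lists were chosen with earlier results of these data known. Counts were summed per library and size class and turned into CPM. Log2 ratios, with 0.5 counts added, were taken relative to the median gene, over genes with a mean of at least 5 CPM across the 4 sums, without the hormones and mt- genes. With at least 10% insulin the median gene itself stood at 0.07 (WT) and 0.03 (*Npc1*-/-) by size, and at 0.07 (very large) and 0.12 (smaller) by genotype. A call is a ratio of at least 1.5 times. It is a size and no test, because cells are not replicates. Named genes were the study's β-cell genes, *Npc1*, the 10 highest and 10 lowest of at least 20 CPM with the same direction in both libraries (or size classes), and members of the lists, some of which are not reported here. Thinning drew 20000 UMIs per barcode. Intervals are exact (Clopper-Pearson, Poisson, conditional binomial and order statistics, 95%, scipy 1.17.1). Scrublet ran in scanpy 1.11.5 on barcodes with over 1000 genes. Endothelial barcodes had at least 20 UMIs and 0.2% of UMIs of that list and under 10% insulin. Gene positions are from GENCODE. The counting was tested on simulated data. Alternatives included edgeR 4.0.16 TMM scaling.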

Additional observations from a re-analysis of the deposited data

Results flagged for a closer look

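In 4 cases the size difference was at least 1.5 times in opposite directions in the 2 libraries. The difference between the libraries was not tested. *Cd74* had a log2 ratio, very large over smaller, of 1.96 in WT and -1.92 in *Npc1*-/- over all members of the rule. The low-insulin barcodes held 99.4% of the *Cd74* UMIs of the WT members. *Ldha* had log2 ratios of 1.25 and -1.58, and 90.4% of its UMIs in WT members and 60% in *Npc1*-/- members were in low-insulin barcodes. With at least 10% insulin it was at 2.24 and 1.91 CPM in WT and 2.01 and 1.71 in *Npc1*-/-. The disallowed genes, a list kept low in β cells that includes *Ldha*, had medians of 0.59 and -1.05, but 0.11 and 0.0800 with at least 10% insulin, so the opposite directions were not kept there. The acinar cell list had medians of -4.11 and 2.97 in barcodes with at least 10% insulin. Its summed level was 17.9 CPM in very large and 140 in smaller WT barcodes and 329 and 44.5 in *Npc1*-/-, where 1 barcode held 2374 of the 2542 *Ctrb1* UMIs. In WT, 1 smaller barcode held 2274 of 2668, so both levels rest on single barcodes.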

How the results depend on the processing

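With 1 library per genotype leaving out a replicate was not possible. No paired analysis was possible because each genotype had 1 library and the labels give no replicate numbers. Causes of the changes below were not tested.

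The share of very large barcodes, 1.87% in WT and 4.54% in *Npc1*-/-, was 2.67% and 5.82% with a minimum of 45000 UMIs, 0.910% and 2.72% at 60000 (ratio 2.99) and 0.198% and 1.11% at 80000 (ratio 5.60). It was 1.28% and 2.98% with mt- under 5%, and 1.45% and 3.701% with insulin at 90% of the hormones. With the *Npc1*-/- minimum scaled by endothelial UMIs it was 1.91% in *Npc1*-/- (ratio 1.02). A second hormone at 2% of hormone UMIs was found in 33.1% of WT members (ratio to smaller barcodes 1.23, interval 0.905 to 1.63) and 41.5% of *Npc1*-/- members, and at 10% in 16.9% and 15.6%. Markers of other classes at 5 UMIs were found in 34.4% and 29.7%. With at least 10% insulin they were found in 1.96% of WT members, and the *Npc1*-/- ratio turned from 0.560 to 1.21. Genes detected at 5000 UMIs without hormone and mt- UMIs gave a ratio of 1.01 in WT. Scored alone, insulin barcodes gave a Scrublet ratio of 1.65 in *Npc1*-/-, against 1.48.

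Counts of genes higher and lower by size in both libraries, 55 and 161, were 12 and 49 at a mean of 20 CPM, 218 and 331 at 1 CPM, 30 and 88 at a limit of 2 times, 25 and 10 without second-hormone barcodes, 20 and 9 without other classes as well, 21 and 11 with at least 10% insulin, and 137 and 366 against comparators up to 30000 UMIs. The lower genes were 14 against comparators from 30000 UMIs and 244 with mt- under 5%. Against comparators under 40000 UMIs with at least 10% insulin, 79 were higher and 11 lower. Higher calls were 25.5% of the calls by size, 65.6% with at least 10% insulin and 87.8% when comparators were also under 40000. For *Npc1*-/- over WT, 218 higher and 384 lower genes became 70 and 95 at 20 CPM, 615 and 1082 at 1 CPM and 40 and 161 at 2 times. At 60000 UMIs 338 were higher. The lower genes were 249 without second-hormone barcodes, 242 without other classes as well and 236 with at least 10% insulin. Lists above the median gene in both libraries, 5 as reported, were 3 at 20 CPM, 2 with comparators from 30000 UMIs and 8 up to 30000.

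Mean size ratios over both libraries became positive against comparators from 30000 UMIs for *Cela3b* (0.71), *Clps* (2.36), *Ctrb1* (1.203), *Hbb-bs* (1.54), *Pnliprp1* (1.29), *Prss2* (1.18) and *Reg1* (0.99). *Igfbp3* was at 0.84 without second-hormone barcodes, and *Cd9* at -0.67 with mt- under 5%. *Tubb3* was at -0.0763 without second-hormone barcodes, -0.0831 without other classes as well, -0.0125 with at least 10% insulin and -0.0208 when comparators were also under 40000, where *Rgs5* was at 0.0102. The disallowed list for *Npc1*-/- over WT was at 0.12 without second-hormone barcodes, 0.14 without other classes as well and 0.46 with at least 10% insulin. Its size median in *Npc1*-/- was 0.0800 with at least 10% insulin and 0.0813 when comparators were also under 40000, and that of the immediate early and heat shock list 0.00711 and 0.0535. The alternatives with at least 10% insulin, with comparators under 40000 and with the scaled minimum were chosen after seeing the data.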
